A study of Mus musculus with 4 samples.

Results

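The genes of the epidermal growth factor (EGF) receptor system were followed through 4 RNA-seq libraries of mouse colorectal tissue. The 10 genes were chosen by name: 3 receptors (Egfr, Erbb2, Erbb3) and 7 ligands (Areg, Ereg, Hbegf, Tgfa, Btc, Epgn, Egf), out of the 54621 gene names listed for WT polyps. All 10 were found in every library. The mice were germ-free, that is, raised without microbes. Every group was given azoxymethane (AOM), a colon carcinogen, followed by 3 rounds of 1% dextran sodium sulfate (DSS) to damage the epithelium. Tissue was taken 36 weeks after AOM was given. The mice were wild type (WT) or Clec7a-/- (KO), lacking the gene of Dectin-1, a beta-glucan receptor of myeloid cells. Each genotype gave 1 library of polyps and 1 of tissue without polyps, each from RNA pooled over several mice. The germ-free KO mice came from caesarean delivery and nursing by germ-free WT mothers whereas the WT mice were purchased, so genotype and source cannot be told apart. The study describes germ-free KO mice as free of polyps, and what tissue the library labelled KO polyps held is therefore not known.

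Values are in TPM, a share of transcripts that corrects for gene length, so that levels may be compared between genes. Differences are log2 ratios of TPM + 1, and calls of higher or lower were made past 1 or -1. With 1 library per group there was no replicate error and no test, and every difference is one between pools. The targeted gene, Clec7a, had 5.97 TPM in WT tissue without polyps and 31.2 TPM in the WT polyp library, against 0.0766 and 0.102 TPM in the KO libraries. Between 16745 and 17357 gene names reached 1 TPM per library. The pan-epithelial markers (8 genes, among them Epcam) summed to between 8573 and 11717 TPM, and all 8 were at 1 TPM or more in every library. Of the 8, only Krt18 was called in a comparison. Krt18 was higher in WT polyps than in WT non-polyp tissue (1.72) and lower in KO than in WT polyps (-1.84). Ratios scaled to these markers rest partly on it. Depth in reads is unknown, so no counting interval is given.

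EGF receptors are tyrosine kinases that pair when a ligand binds and drive epithelial growth and repair through the RAS and ERK cascade. The ligands are made as membrane proteins and freed by proteases such as Adam17 and Adam10. Areg (amphiregulin), Tgfa, Egf and Epgn (epigen) bind the receptor encoded by Egfr, and Hbegf, Ereg (epiregulin) and Btc (betacellulin) bind it and that of Erbb4. Erbb2 encodes a partner receptor with no known ligand, and Erbb3 a neuregulin receptor with a weak kinase. In the colon, Areg, Ereg and other ligands are known for regrowth of the epithelium after injury.

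The main pattern was a higher level of 5 ligands in WT polyps than in the other 3 libraries. Areg, Hbegf, Tgfa, Ereg and Btc were each between 2.37 and 4.39 times as abundant in WT polyps as in WT tissue without polyps, and in KO polyps they stood near the non-polyp levels. The receptors were not called higher there: Egfr differed little over the 4 libraries, and Erbb3 was lower in WT polyps than in any other library. Egf went the other way from the 5 ligands, with its lowest level in WT polyps.

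**Figure D1:**
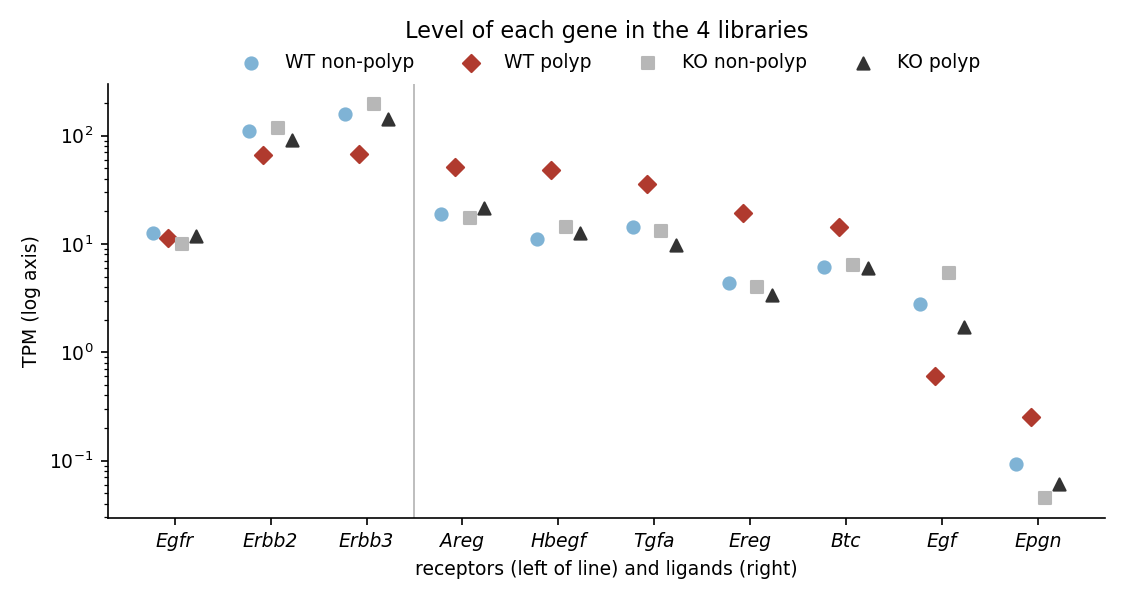
TPM of each gene on a log axis in the 4 libraries, 1 point per library (circle, WT non-polyp; diamond, WT polyp; square, KO non-polyp; triangle, KO polyp). For Areg, Hbegf, Tgfa, Ereg and Btc the WT polyp library lies above the other 3, which lie together; for Erbb2, Erbb3 and Egf it lies below them.

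Areg, which many epithelial and immune cells release during repair, stood at 18.7 TPM in WT non-polyp tissue, 51.3 TPM in WT polyps, 17.4 TPM in KO non-polyp tissue and 21.7 TPM in KO polyps. Hbegf, which also binds heparin, stood at 11.1, 48.0, 14.4 and 12.5 TPM in the same order. Ereg stood at 4.40, 19.3, 3.99 and 3.40 TPM. For each of these genes the WT polyp library was the only high one, and KO polyps differed from KO non-polyp tissue by at most 0.30 on the log2 scale. Tgfa, a ligand known from many epithelial tumours, stood at 14.3, 35.7, 13.2 and 9.89 TPM in the order above. Btc stood at 6.07, 14.4, 6.34 and 5.94 TPM. Epgn stayed under 1 TPM in every library, from 0.0450 in KO non-polyp tissue to 0.252 TPM in WT polyps. Its coverage, the mean read depth per base, was 0.317 in WT polyps, against 64.5 for Areg, 60.4 for Hbegf, 24.3 for Ereg, 11.8 for Btc and 9.20 for Tgfa, so that differences of Epgn were not detectable at this depth.

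Egf, the founding ligand of the family, stood at 2.82 TPM in WT non-polyp tissue, 0.602 TPM in WT polyps, 5.44 TPM in KO non-polyp tissue and 1.72 TPM in KO polyps. Both polyp libraries were thus lower than the non-polyp library of their genotype. Coverage of Egf was 0.535 in the WT polyp library, 1.25 in the KO polyp library and 2.04 in WT tissue without polyps, so these levels rest on few reads per base.

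Among the receptors, Erbb3 had the highest level in each library (in WT polyps it equalled Erbb2), with 157 TPM in WT non-polyp tissue, 67.2 TPM in WT polyps, 197 TPM in KO non-polyp tissue and 143 TPM in KO polyps. Erbb2 followed with 110.1, 66.9, 117 and 91.8 TPM. Egfr was the scarcest receptor, with 12.5, 11.2, 9.97 and 11.8 TPM. WT polyps had the lowest level of Erbb2 and Erbb3, whereas Egfr spanned only 0.30 on the log2 scale.

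The study asked how KO polyps differed from WT polyps. In KO polyps 5 of the 7 ligands were lower and none was higher; of all gene names at 1 TPM or more in either library, 12.5% were lower. Ereg had the largest ratio (-2.21, 5.69-fold lower), and only 2.9% of names at 1 TPM or more had a lower one. Hbegf (-1.86, 3.83-fold lower) and Tgfa (-1.75, 3.61-fold lower) came next, with 4.2% and 4.7% of names below them. Areg (-1.21) and Btc (-1.15) passed the threshold by less, and neither did after scaling to the pan-epithelial markers (-0.75 and -0.73) or to Gapdh (-0.88 and -0.84). Epgn (-0.24) and Egf (0.77) did not pass it. Of the 3 receptors, Erbb3 was higher in KO polyps (1.08, 2.13-fold), where 14.7% of names at 1 TPM or more were higher, while Erbb2 (0.45) and Egfr (0.07) did not pass the threshold.

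**Figure D2:**
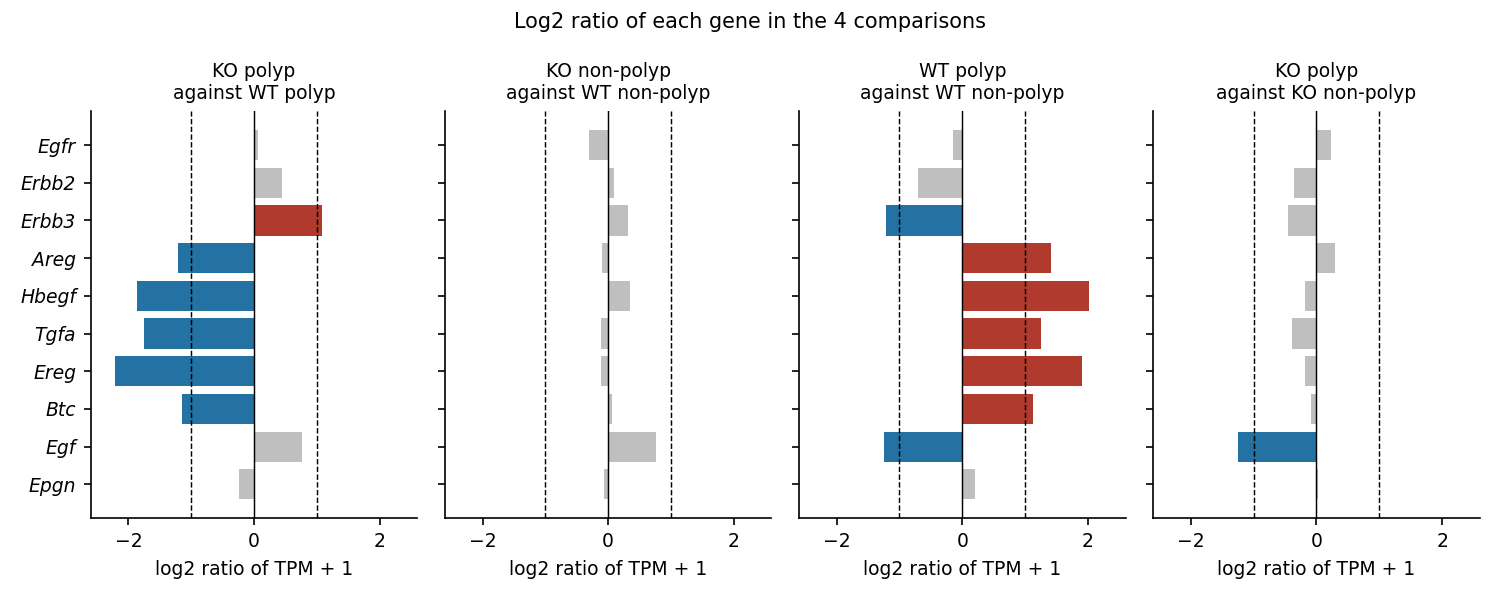
Log2 ratio of TPM + 1 of each gene (horizontal axis) in the 4 comparisons, 1 panel each; red bars passed 1, blue bars passed -1, grey bars neither, and dashed lines mark the thresholds. In KO against WT polyps 5 ligands were lower and Erbb3 higher, in WT polyps against WT non-polyp tissue the same 5 ligands were higher and Erbb3 and Egf lower, and in non-polyp tissue no gene passed.

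In tissue without polyps the genotypes differed by less than the threshold in all 10 genes, where 4.35% of names at 1 TPM or more passed it in either direction. Ratios of KO against WT ran from -0.30 for Egfr to 0.75 for Egf. Those of Areg, Ereg, Tgfa and Btc lay between -0.12 and 0.05. Egf was the gene nearest to the threshold, at 5.44 against 2.82 TPM, and 4.0% of names had a larger ratio. When TPM was scaled to Gapdh, which stood at 30.1 TPM in KO and 56.6 TPM in WT tissue, all KO ratios moved up and Egf (1.51), Erbb3 (1.23) and Hbegf (1.21) passed.

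WT polyps were then compared with WT tissue without polyps. The same 5 ligands were higher and Egf lower, and of the receptors Erbb3 was lower; 15.4% of names at 1 TPM or more were higher and 10.9% lower. Hbegf (2.02, 4.33-fold) and Ereg (1.91, 4.39-fold) had the largest ratios, and 3.8% and 4.3% of names lay above them. Areg had a ratio of 1.41 (2.74-fold), Tgfa of 1.26 (2.49-fold) and Btc of 1.12 (2.37-fold), and Btc did not pass the threshold under 5 of 11 other settings, nor Tgfa after scaling to the pan-epithelial markers (0.98). Erbb3 (-1.22) was lower, and Erbb2 (-0.71) and Egfr (-0.14) did not pass. Egf (-1.25, 4.69-fold lower) passed at a level where a pseudocount of 5 TPM gave -0.48. Both this comparison and that of the polyp libraries use the WT polyp library, so they are not separate observations of it.

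In KO mice, polyps and non-polyp tissue differed in 1 of the 10 genes, where 12.9% of names at 1 TPM or more passed the threshold in either direction. Egf was lower in KO polyps (-1.24, 3.15-fold lower), where 2.98% of names at 1 TPM or more were lower, and it did not pass with a pseudocount of 5 TPM (-0.63). The other 6 ligands had ratios between -0.38 for Tgfa and 0.30 for Areg, and the receptors between -0.46 for Erbb3 and 0.23 for Egfr. The tissue ratio in KO mice minus that in WT mice was -2.21 for Hbegf, -2.09 for Ereg, -1.65 for Tgfa, -1.20 for Btc and -1.11 for Areg. Those of Areg and Btc did not reach -1 after scaling to the pan-epithelial markers (-0.53 and -0.67). Of names at 1 TPM or more in any library, 13.1% had a difference below -1. It was 0.01 for Egf, whose tissue ratio was nearly equal in both genotypes (-1.25 in WT and -1.24 in KO mice). No residual error was left for a test of these differences.

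**Figure D3:**
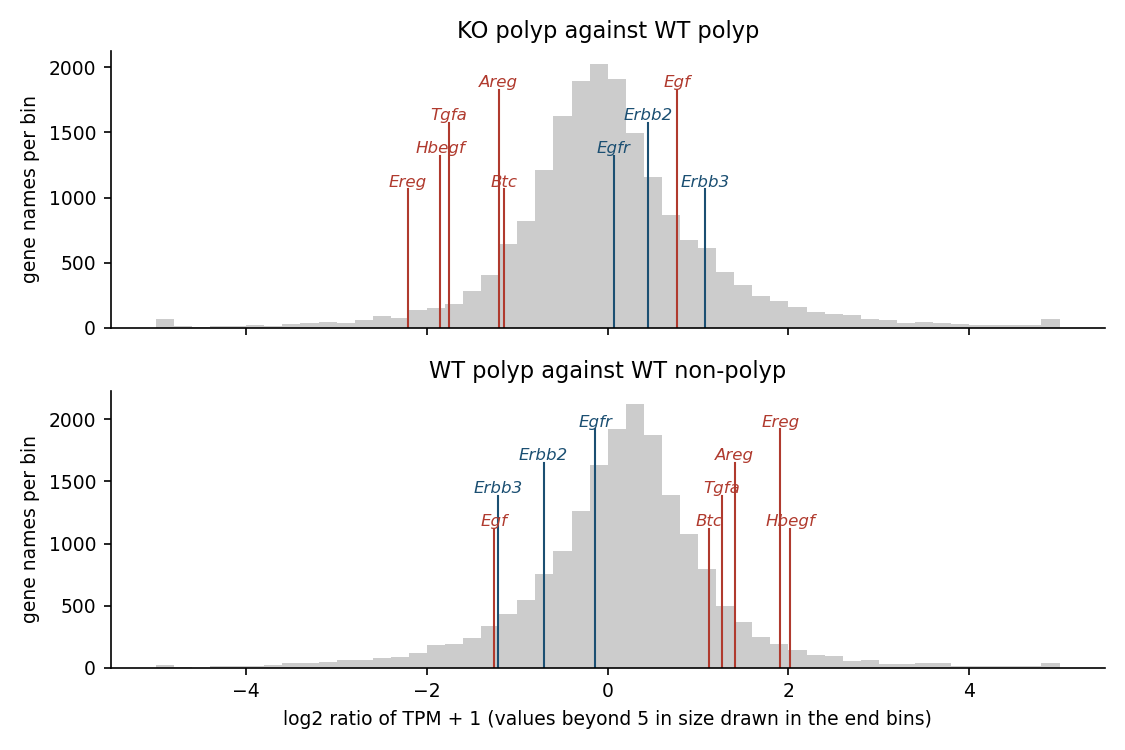
Histograms of the log2 ratio of TPM + 1 (horizontal axis) over all gene names that reached 1 TPM in either library, in KO against WT polyps (top) and in WT polyps against WT non-polyp tissue (bottom), with ligands marked in red and receptors in dark blue; Epgn is below 1 TPM and not drawn. In the upper panel Ereg, Hbegf and Tgfa lie in the lowest 5% of names, at 2.9%, 4.2% and 4.7%, and Erbb3 lies on the other side of 0.

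Summed over the 7 genes, ligand transcripts gave 57.5 TPM in WT non-polyp tissue, 169.6 TPM in WT polyps, 60.9 TPM in KO non-polyp tissue and 55.2 TPM in KO polyps. Receptor transcripts gave 280.0, 145, 324 and 247 TPM. In TPM, the ligand sum thus exceeded the receptor sum in WT polyps alone (1.17 times). It was 0.205, 0.188 and 0.224 times the receptor sum in WT non-polyp, KO non-polyp and KO polyp tissue. The excess in WT polyps is smaller than the 35.7 TPM of Tgfa there, so it depends on the measure. Most of the receptor sum was Erbb2 and Erbb3, and Egfr held 7.74% of it in WT polyps. Set against Egfr alone, the ligand sum was larger in every library. The makeup of the ligand sum moved less than its size. Areg, Hbegf and Tgfa together held 76.7%, 79.6%, 74.0% and 79.9% of it in the order above, and Areg was the most abundant ligand in each library (32.6%, 30.2%, 28.6% and 39.2%). The place of Tgfa depends on the measure. In WT polyps its coverage (9.20) was lower than that of Ereg (24.3) and Btc (11.8), although its TPM was higher. The cause was not tested. Hbegf took 28.3% in WT polyps against 19.3% in WT non-polyp tissue, and Ereg 11.4% against 7.66%. Within the receptor sum, Erbb3 and Erbb2 were at equal levels in WT polyps (a ratio of 1.00), whereas Erbb3 was 1.43, 1.68 and 1.56 times Erbb2 in WT non-polyp, KO non-polyp and KO polyp tissue.

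**Figure D4:**
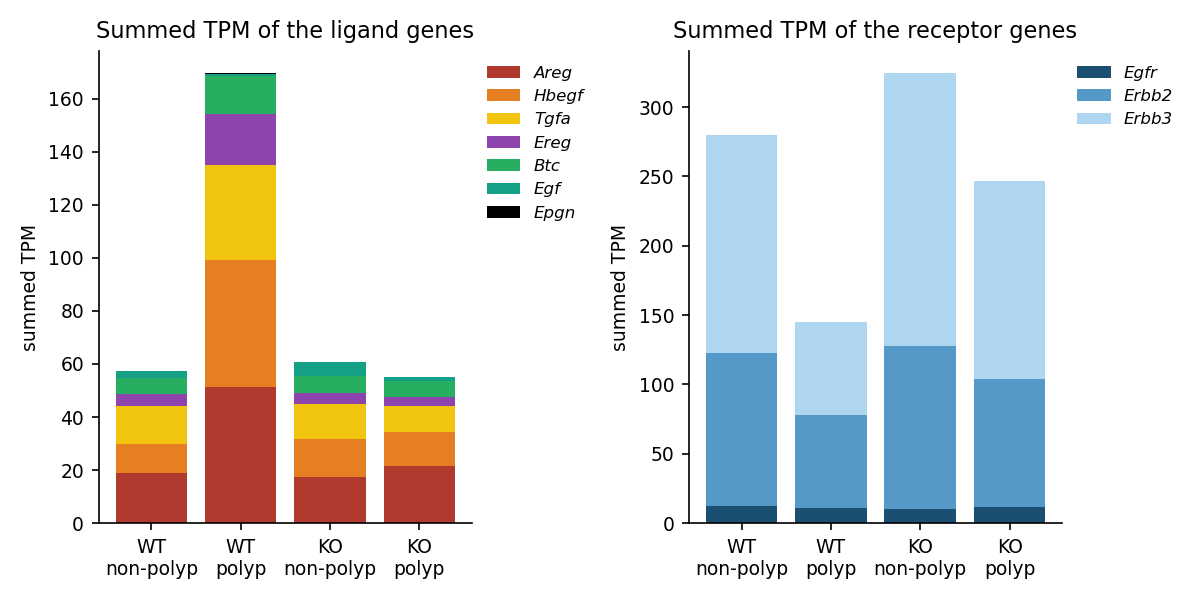
Summed TPM of the 7 ligand genes (left) and the 3 receptor genes (right) in the 4 libraries, 1 stacked bar per library with 1 colour per gene and axes starting at 0. The ligand bar of WT polyps reaches 169.6 TPM against 55.2 to 60.9 TPM in the other libraries, and its receptor bar is the lowest at 145 TPM.

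The ligand genes Epgn, Ereg, Areg and Btc lie together on chromosome 5 of GRCm38, in that order, over 375.5 kilobases. Ereg (ENSMUSG00000029377) spans 91074622 to 91093646 and Areg (ENSMUSG00000029378) 91139599 to 91148432 on the plus strand, and Btc (ENSMUSG00000082361) 91357261 to 91402994 on the minus strand. Tgfa (ENSMUSG00000029999), on chromosome 6 from 86195223 to 86275719, and Hbegf lie on other chromosomes. The neighbours were looked at after their values were seen. On one side lie chemokine genes, of which Cxcl5, a neutrophil attractant, stood at 2.84, 164, 0.230 and 2.85 TPM in the order above, and Cxcl1 at 0.533, 19.5, 0.690 and 1.86 TPM. The chemokine gene Pf4 among them was nearly level (25.0, 32.2, 25.8 and 30.7 TPM), and Mthfd2l, next to Epgn, stood at 4.27, 22.3, 13.5 and 16.9 TPM and was not called lower in KO than in WT polyps (-0.38). On the other side Parm1 had its lowest level in WT polyps (61.3 TPM against 94.5 to 115 TPM). The first 152 bases of Ereg overlap the predicted antisense gene Gm19610, with 4.70 TPM in the WT and 1.73 TPM in the KO polyp library. The sources do not say that strand was kept, so reads of the 2 genes cannot be told apart there.

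Upstream sequences are shown for the 3 ligands that were higher in WT polyps and have an entry among RefSeq promoters of GRCm38.p6, which held 7 of the 10 genes. Both strands of the 250 bases before the start were searched for the cyclic AMP response element (CRE, TGACGTCA), its core TGACG, which the CRE contains, the AP-1 motif TGANTCA and the TCF/LEF motif CTTTGAT. Matches are in capitals, and CGTCA is the core read on the other strand.
Areg, chr5:91139349-91139598, plus strand: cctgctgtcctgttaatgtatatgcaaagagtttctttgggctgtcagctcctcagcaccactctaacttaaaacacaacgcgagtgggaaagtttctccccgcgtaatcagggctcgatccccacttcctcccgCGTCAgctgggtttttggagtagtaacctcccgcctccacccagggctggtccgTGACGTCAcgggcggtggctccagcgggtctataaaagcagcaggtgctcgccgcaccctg
Btc, chr5:91402995-91403244, minus strand: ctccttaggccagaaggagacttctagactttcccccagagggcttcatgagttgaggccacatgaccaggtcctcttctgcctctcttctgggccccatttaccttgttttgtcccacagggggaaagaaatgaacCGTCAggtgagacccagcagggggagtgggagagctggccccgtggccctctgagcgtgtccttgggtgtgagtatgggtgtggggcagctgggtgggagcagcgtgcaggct
Tgfa, chr6:86194972-86195221, plus strand: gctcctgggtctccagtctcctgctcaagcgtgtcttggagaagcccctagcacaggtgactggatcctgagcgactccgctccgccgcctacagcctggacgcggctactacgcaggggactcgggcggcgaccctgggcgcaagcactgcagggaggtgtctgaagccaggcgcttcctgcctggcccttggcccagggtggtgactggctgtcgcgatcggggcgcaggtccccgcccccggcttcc
Areg was the only gene of the 7 with the whole CRE, which begins 61 bases before the start and is found in 1.55% of 32851 promoters. The core was found upstream of Areg, Btc, Epgn and Erbb2, against 17.8% of promoters. No AP-1 or TCF/LEF match was found in the 8 upstream sequences of these 7 genes, where 6.75% and 3.21% of promoters hold 1. A match is a description of these letters only.

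The other genes of the pathway were taken from 5 lists. Erbb4 was listed at 0 in 3 libraries and at 0.00438 TPM in KO non-polyp tissue. Nrg1 (neuregulin, a ligand of the receptors of Erbb3 and Erbb4) stood at 0.272 TPM in WT non-polyp tissue, 9.53 TPM in WT polyps, 1.26 TPM in KO non-polyp tissue and 2.65 TPM in KO polyps. It was thus higher in WT polyps (3.05) and lower in KO than in WT polyps (-1.53), as the only called gene of the 5 in this list. Of names at 1 TPM or more, 15.4% were higher in the first comparison and 12.5% lower in the second. Of 6 genes of ligand release, Adam10 was higher in WT polyps than in WT non-polyp tissue (1.03) and the rhomboid protease gene Rhbdl2 lower (-1.34). These calls stand beside 15.4% of names at 1 TPM or more that were higher and 10.9% that were lower. Rhbdl2 was higher in KO than in WT polyps (1.47), where 14.7% of names at 1 TPM or more were higher. Adam17, which frees most of the 5 ligands, stood at 22.7, 27.7, 19.6 and 30.5 TPM in the usual order and did not pass the threshold. Neither did Rhbdf1 and Rhbdf2, which encode its partners.

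Of 10 genes that restrain or degrade the receptors, 2 were lower in WT polyps than in WT non-polyp tissue and none higher, beside 10.9% and 15.4% of names at 1 TPM or more. Lrig3 stood at 54.3, 8.55, 59.8 and 37.1 TPM in the usual order, with ratios of -2.53 for WT polyps and 1.99 for KO against WT polyps. Lrig1, a receptor inhibitor that marks crypt stem cells, stood at 75.1, 35.2, 67.9 and 42.4 TPM (-1.07 for WT polyps). The feedback inhibitor Errfi1 was between 49.2 and 57.7 TPM in all libraries. Of 19 genes of the adaptors and the RAS-RAF-MEK-ERK cascade, 2 were higher in WT polyps than in WT non-polyp tissue (Plcg1, 1.21, and Nras, 1.03) and 1 lower (Map2k1, which encodes MEK1, -1.08), beside 15.4% and 10.9% of names at 1 TPM or more. In KO against WT polyps only Map2k1 passed (1.01), where 14.7% of names at 1 TPM or more were higher and 12.5% lower. The median ratio of the list was 0.13 and -0.14 in these comparisons, beside 0.21 and -0.05 over all names at 1 TPM or more.

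The last list, chosen like the others with earlier results of these data known, held genes that ERK signalling is known to raise. Of 15 such genes, 9 were higher in WT polyps than in WT non-polyp tissue and none lower (15.4% of names at 1 TPM or more were higher), with a median ratio of 1.18 beside 0.21 over those names. Dusp4, a phosphatase that switches ERK off, stood at 4.83, 69.9, 5.44 and 11.4 TPM in the usual order. The transcription factor gene Etv5 stood at 8.03, 102, 8.15 and 6.71 TPM. Ier3 stood at 19.0, 192, 19.8 and 16.3 TPM, and Phlda1 at 34.6, 320.1, 33.9 and 35.7 TPM. For each of these 4 genes the WT polyp library stood apart from the other 3. Both comparisons share the WT polyp library, and ERK activity itself was not measured. In KO against WT polyps 10 of the 15 had lower and none had higher levels (12.5% of names were lower), with a median of -2.02 beside -0.05, among them Etv5 (-3.74), Ier3 (-3.48), Phlda1 (-3.13) and Epha2, an ephrin receptor gene (-2.65). One of the 10, Ccnd1 (-2.05), was also chosen by the study for its own assay in germ-free mice. The other 5, among them Spry2 (-0.01) and Dusp5 (0.22), did not pass. In non-polyp tissue, and between KO polyps and KO non-polyp tissue, none of the 15 passed, where 4.35% and 12.9% of names at 1 TPM or more did.

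**Figure D5:**
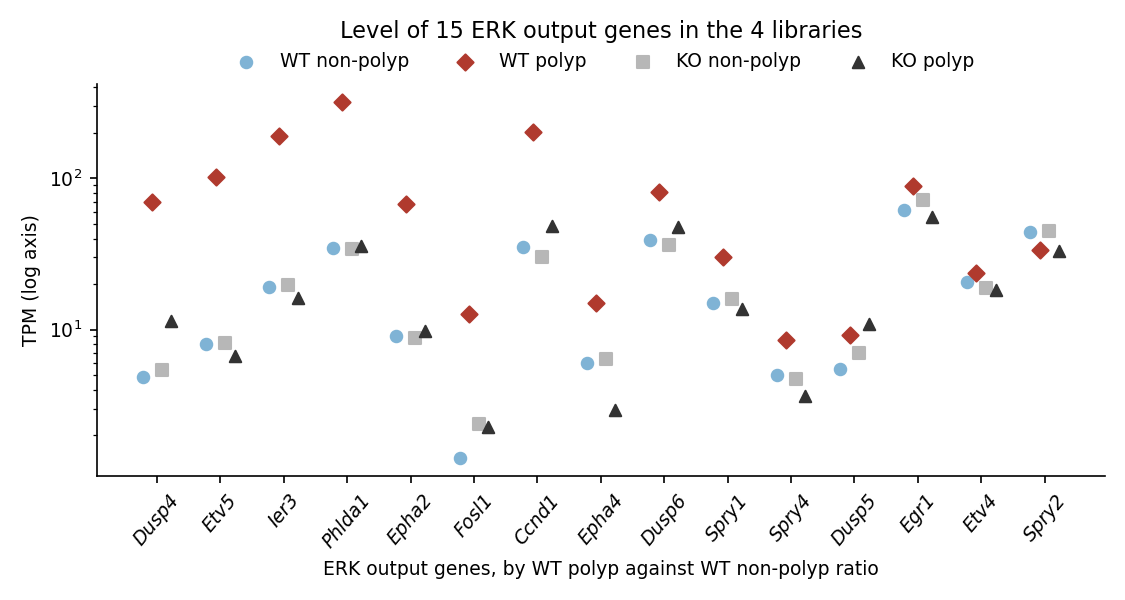
TPM on a log axis of 15 genes known to rise with ERK signalling, in the 4 libraries, 1 point per library, ordered by the ratio of WT polyps to WT non-polyp tissue. At the left the WT polyp library (diamond) lies far above the other 3, as for Dusp4 at 69.9 TPM against 4.83 to 11.4 TPM, and at the right, for genes such as Etv4 and Spry2, the 4 libraries lie together.

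Markers of other cells also differed between the libraries, and not all followed the pattern of the ligands. The squamous epithelium list (9 genes, Krt5 and Krt14 among them) summed to 657 TPM in WT polyps, of which Krt15 gave 383 TPM. The sum was 9.16 TPM in WT non-polyp tissue, 2.26 TPM in KO non-polyp tissue and 9.52 TPM in KO polyps. In WT polyps 8 of 9 genes were at 1 TPM or more, and Trp63 stood at 0.125 TPM. In KO against WT polyps 7 of the 9 were lower (12.5% of names at 1 TPM or more). Trp63 (-0.15) and Dsc3 (-0.21) were not. Krt4 and Krt6a were listed at 0 in KO non-polyp tissue and Krt6a in KO polyps. Mast cell genes (7) summed to 127 TPM in WT polyps against 28.2 to 52.7 TPM elsewhere, with Fcer1a and Mcpt4 listed at 0 in both KO libraries. Kit ran the other way, with 7.0 TPM in WT polyps and 26.4 to 36.9 TPM elsewhere, and without it, a choice made after its values were seen, the list summed to 15.8, 120.5, 2.24 and 1.80 TPM in the usual order. Of 7 neutrophil and monocyte genes 5 were higher and 1, Ly6g, lower in WT polyps than in WT non-polyp tissue (15.4% and 10.9% of names at 1 TPM or more). The list summed to 254 TPM against 178 to 195 TPM elsewhere, of which Ly6g alone gave 74.0 TPM in WT polyps and 166 to 189 TPM elsewhere. Without Ly6g, left out after its values were seen, the sum was 12.2 TPM in WT non-polyp tissue, 180.4 TPM in WT polyps, 6.47 TPM in KO non-polyp tissue and 20.0 TPM in KO polyps. Fibroblast genes (7) summed to 1068 TPM in WT polyps against 624 to 853 TPM elsewhere, but went both ways, with 3 higher and 1 lower (Lum, -2.25) in WT polyps than in WT non-polyp tissue, and 1 higher and 1 lower in KO than in WT polyps. Absorptive colonocyte genes (6) summed to 669 TPM in WT polyps and to between 3206 and 4249 TPM elsewhere. Of these, 5 were lower in WT polyps than in WT non-polyp tissue (10.9% of names at 1 TPM or more). Krt20 was not (262 against 286 TPM, -0.12), and Krt20 and Car1 (374 TPM) gave most of the sum in WT polyps. Smooth muscle genes (6) summed to 392 TPM in WT polyps, 1508 TPM in KO polyps, and 4992 and 4838 TPM in WT and KO non-polyp tissue. B cell genes (6) summed to 1112 TPM in KO polyps and to between 32.6 and 51.4 TPM elsewhere. The part of these cells in the levels of the ligands and receptors was not tested, and in such bulk tissue fewer cells of a type and less RNA per cell cannot be told apart.

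Likeness of pattern was measured for the 3 genes with the widest range, Ereg (2.21), Hbegf (2.02) and Egf (2.01 on the log2 scale), as the Euclidean distance between mean-centred log2(TPM + 1) values over the 4 libraries, among 12503 other names at 5 TPM or more in their highest library. Nearest to Ereg were Ptgr1 (distance 0.062), Focad, Rbm24, Cib2 and Hebp2 (0.098); Ptgr1 stood at 22.1, 83.1, 19.6 and 18.1 TPM in the usual order. Nearest to Hbegf were Ifitm5 (0.046), Rpp25, Nradd, Rnf208 and Plscr3 (0.19). Nearest to Egf were Fxyd1 (0.14), Enah, Alpk1, Rph3al and Dab2ip (0.36). Among the 10 genes themselves, Areg and Btc were 0.35 apart and Ereg and Hbegf 0.42, whereas Ereg and Egf were 3.04 apart. With 4 libraries many genes share such a pattern, and the distances are a description.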

How the data were processed

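RNA was sequenced from 4 libraries, 1 for each combination of genotype and tissue, with no replicate. The series' design text gives 5 mice pooled per genotype, while the paper gives 1 WT mouse fewer, and the labels and the paper name different library kits. The authors' pipeline, as the paper describes it, was Trimmomatic for trimming, HISAT2 for alignment against GRCm38 (mm10) and StringTie for abundance; versions and annotation release are not given in the sources used here. The deposited TPM column of 3 tables, whose unit is other than a plain TPM column since it lists reference genes beside overlapping assembled loci, sums to more than 1000000, so only reference genes were used. These tables also hold FPKM and a coverage signal, made by the authors. The deposited table of KO non-polyp tissue holds TPM of reference genes and a ratio of each TPM to that of Gapdh by the authors, which was not used, and no FPKM or coverage.

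Symbols that had become dates (27 per table, in 3 of the tables) were put back, TPM was summed over entries of 1 name, and log2 ratios of TPM + 1 were taken, with the threshold of 1 from the study's methods. Reference genes summed to between 860905 and 906199 TPM. No test was run, since each group has 1 library. The members and lists were chosen with earlier results of these data known. The genes named are Clec7a, the 10 members, up to 4 called genes at 5 TPM or more per list and comparison, and the 5 nearest profiles of 3 members, predicted names left out; other named genes of a list, and the neighbours on chromosome 5, were chosen after their values were seen. Alternatives changed the pseudocount (0.1 or 5 TPM), the floor (5 TPM), the unit (FPKM), the entry used per name (the highest) or the scaling (names in all tables, pan-epithelial markers, Gapdh, median of ratios, quantiles); assembled loci on the same strand, and all settings for ERK genes, were chosen after seeing the data. The calculation of ratios was tested on simulated data. Gene positions of the files were checked against GENCODE M21. Those of Clec7a and the 10 members were the same there, except that of Hbegf. Upstream sequences are from RefSeq. Versions were 2.3.3 for pandas, 2.4.6 for numpy, 3.10.9 for matplotlib and 3.11.15 for Python.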

Additional observations from a re-analysis of the deposited data

Results flagged for a closer look

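For 5 of the 10 genes the polyp library was higher than the non-polyp library in 1 genotype and lower in the other, as for 37.1% of names at 1 TPM or more. The KO ratio minus the WT ratio was -2.21 for Hbegf, -2.09 for Ereg, -1.65 for Tgfa, -1.20 for Btc and 0.37 for Egfr. In KO mice the ratios of these 5 genes lay between -0.38 and 0.23, all short of the threshold. The differences were not tested, since each group has 1 library.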

How the results depend on the processing

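Of 390 alternative values of a gene's ratio, 368 stayed on the same side of the threshold, 15 fell short of it, 7 newly passed it and none that had passed it turned direction. The floor of 5 TPM and the highest entry per name left every ratio and difference of the 10 genes that they kept unchanged. Agreement under these settings was therefore fixed in advance, and the counts given here include them. The assembled loci of Areg, Ereg and Hbegf had the same TPM as their reference genes, so that setting also repeated their ratios. Ereg, Hbegf, Tgfa and Erbb3 passed the threshold in KO against WT polyps, and Ereg, Hbegf, Areg and Erbb3 in WT polyps against WT non-polyp tissue, under all 11 alternatives. Called genes numbered between 4 and 8 in the first of these comparisons and between 5 and 7 in the second, and called ERK genes between 8 and 10 and between 7 and 9. In non-polyp tissue, scaling to Gapdh called 3 of the 10 genes and 3 of the ERK genes. Between KO polyps and KO non-polyp tissue, a pseudocount of 5 TPM called 0 of the 10 genes and scaling to Gapdh 2, and of the ERK genes a pseudocount of 0.1 TPM called 2, quantile normalization 1, scaling to pan-epithelial markers 1 and scaling to Gapdh 2. Scaling to pan-epithelial markers moved log2 ratios of KO against WT polyps by 0.47 and scaling to Gapdh those of non-polyp tissue by 0.91 before 1 TPM was added, and ratios of scarce genes moved by less. Of 89 alternative values of the difference between tissue ratios, 84 stayed on the same side of the threshold, 4 fell short of it and 1 newly passed it; those that fell short were of Areg and Btc, under scaling to pan-epithelial markers (-0.53 and -0.67) and a pseudocount of 5 TPM (-0.996 and -0.86). Egf depended on the unit: its assembled locus had 4.18 TPM in WT tissue without polyps, 2.47 TPM in the WT and 3.46 TPM in the KO polyp library, so that the WT tissue ratio was -0.58. The cause of these shifts was not tested. FPKM and assembled loci gave no value for comparisons with KO non-polyp tissue, and Epgn had no assembled locus. No paired analysis was possible because each group holds 1 library.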
